A study of Mus musculus with 8 samples.

Results

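The genes of glucose transport, glycolysis, lactate handling and glycogen turnover were followed in the mouse heart 24 hours after myocardial infarction (MI). The set holds 35 genes, listed by name, and all 35 of 35 were found on the array and retained. For each gene the values come from the probe with the highest mean signal among probes designed on its RefSeq transcripts that the scanner software marked as well above background on 4 or more of the 8 arrays. Through their RefSeq accessions, 15152 genes in all had such a probe.

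Total RNA came from the heart ventricles of adult male C57BL\6 mice. In 4 MI mice a suture closed the anterior interventricular artery for good, and 4 sham-operated mice served as controls. All 8 mice had also been imaged with radiolabeled glucose (FDG-PET) under isoflurane before sacrifice, and had for that exam received Acipimox, which blocks the release of fatty acids from fat and raises the uptake of glucose tracer by the heart. The measured hearts of both groups therefore share this treatment. The tissue was lysed without separating infarcted from spared muscle, so both are in the same RNA, together with blood and infiltrating cells.

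Glycolysis splits glucose into pyruvate, which is either oxidised in mitochondria after the pyruvate dehydrogenase step or reduced to lactate and exported. The adult heart burns mostly fatty acids, holds a store of glycogen, and turns to glycolysis when oxygen falls. Most steps are carried out by several isoforms from different genes: one that predominates in adult striated muscle, such as Slc2a4, Hk2, Pfkm, Pgam2, Eno3 and Pygm, and others that are used by many dividing, hypoxic or immune cells, such as Slc2a1, Hk3, Pfkp, Pgam1, Eno1 and Pygl. Hk3 and Slc2a3 are known from leukocytes, and Pygl from liver and leukocytes.

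Many glycolytic genes carry in their promoters the core of the hypoxia response element, to which hypoxia-inducible factors bind. The letters ACGTG and GCGTG were searched on both strands of the RefSeq windows that run from 250 bases before to 50 bases after each gene's start. A palindromic CACGTG counts as 2 matches because each strand holds the letters. Of the 35 genes, 33 had a window (Slc2a3 and Slc2a4 did not). At least 1 match was present in 28 of these 33 genes, beside 46.7% of all genes with a window, 62.2% of genes with a retained probe and 43.8% of all windows of this length. It was present in 7 of 7 genes of the set that were called higher in MI mice below and in 21 of 26 that were not. A match is a description of the letters and not a bound site. The 4 windows that follow are those of the lactate exporter, the main inducible glucose transporter and the inducible maker of fructose-2,6-bisphosphate, which were among the called genes, and that of Ldha, which held 7 matches and was not called. Pfkfb3 and Ldha each had 2 windows, and the one shown was picked by its number of matches. Matches are in capitals.
Slc16a3, GRCm38.p6 chr11:120948817-120949116, plus strand: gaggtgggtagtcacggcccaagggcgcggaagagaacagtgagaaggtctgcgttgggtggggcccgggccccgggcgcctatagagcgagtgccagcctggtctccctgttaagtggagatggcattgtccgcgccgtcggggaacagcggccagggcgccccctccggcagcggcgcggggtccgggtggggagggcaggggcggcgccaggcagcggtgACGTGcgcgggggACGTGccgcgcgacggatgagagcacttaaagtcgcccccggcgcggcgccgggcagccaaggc
Slc2a1, GRCm38.p6 chr4:119108495-119108794, plus strand: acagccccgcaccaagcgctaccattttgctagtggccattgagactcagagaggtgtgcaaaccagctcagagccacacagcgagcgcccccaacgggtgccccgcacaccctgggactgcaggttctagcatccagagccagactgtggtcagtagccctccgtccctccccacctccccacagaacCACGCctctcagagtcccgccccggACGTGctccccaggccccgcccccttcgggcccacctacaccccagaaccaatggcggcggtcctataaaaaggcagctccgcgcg
Pfkfb3, GRCm38.p6 chr2:11502041-11502340, minus strand: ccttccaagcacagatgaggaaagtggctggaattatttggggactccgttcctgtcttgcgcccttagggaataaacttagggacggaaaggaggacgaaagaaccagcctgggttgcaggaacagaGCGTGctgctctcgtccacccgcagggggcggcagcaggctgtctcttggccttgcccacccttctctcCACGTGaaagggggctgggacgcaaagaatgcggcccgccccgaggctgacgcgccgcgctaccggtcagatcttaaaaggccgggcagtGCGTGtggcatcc
Ldha, GRCm38.p6 chr7:46845554-46845853, plus strand: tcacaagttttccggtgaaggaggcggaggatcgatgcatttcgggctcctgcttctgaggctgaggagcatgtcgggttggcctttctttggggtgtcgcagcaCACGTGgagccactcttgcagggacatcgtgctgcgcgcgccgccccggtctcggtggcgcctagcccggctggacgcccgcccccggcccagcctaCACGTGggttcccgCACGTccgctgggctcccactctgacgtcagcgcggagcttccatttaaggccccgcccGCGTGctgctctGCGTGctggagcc

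The arrays measured 1 colour, with 1 array per mouse on 1 slide. The share of spots well above background was 56.2% on the array where it was lowest and 64.0% where it was highest. Pearson's correlation between arrays of the same group, across probes, was between 0.988 and 0.994. The values below are log2 signals scaled by spike-in RNA that had been added to equal amounts of total RNA. They are given in the order of replicates 1 to 4, as numbered in the sample labels. Arrays of the same number lay side by side on the slide. Scaling each array to its 75th percentile instead lowered the median log2 fold change of all 34038 retained probes by 0.14, from 0.13 to -0.01, and counts under this scaling are given beside the others. All 35 genes were well above background on all 8 arrays, and none was saturated.

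In MI mice 8 of the 35 genes were higher than in sham-operated mice and 0 were lower (limma, adjusted p under 0.05 over all retained probes). They were the transporters Slc2a1, Slc2a3 and Slc16a3, the enzymes Hk3, Pfkp and Pgam1, the regulator Pfkfb3 and the phosphorylase Pygl. Of all retained probes 5.08% were called higher and 0.687% lower, and with an unadjusted p under 0.05 1 of the 35 genes was lower, Pfkfb2. Past a 2-fold change as well, 7 of the 35 genes (all but Pgam1) were called higher and 0 lower, against 4.08% and 0.552% of retained probes. With an additive constant of 200 before log2, 5 genes were past 2-fold (Hk3 and Slc2a3 fell below it), and 6 with normexp background correction. The 7 genes were called in each of the 8 fits that left out 1 mouse. The number of called genes was 13 without MI replicate 2, a fit that called 7.1% of retained probes higher. The arrays of MI replicate 2 and sham replicate 2 had the lowest 75th percentiles after spike-in scaling, at -0.37 and -0.39 log2 units from the mean of the arrays.

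After scaling to the 75th percentile, 15 genes were called higher and 1 lower, against 8.99% and 8.48% of retained probes. The 7 genes added were Hk1, Pfkl, Pfkfb4, Aldoc, Eno1, Pkm and Gbe1, and the 1 lower gene was Pfkfb2. Past 2-fold as well, 7 were higher and 1 lower, against 3.11% and 1.14% of retained probes. The log2 fold change was positive for 28 of the 35 genes, beside 65.1% of all retained probes, and for 24 after scaling to the 75th percentile, beside 48.3%. The median log2 fold change was 0.32 over the 35 genes and 0.18 after scaling to the 75th percentile. In 12 genes the 4 MI mice all lay above the 4 sham-operated mice and in 1 gene all below, which was the case for 8.0% and 2.47% of retained probes. After scaling to the 75th percentile, 17 genes were separated upward and 3 downward, beside 11.5% and 12.1% of retained probes.

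**Figure D1:**
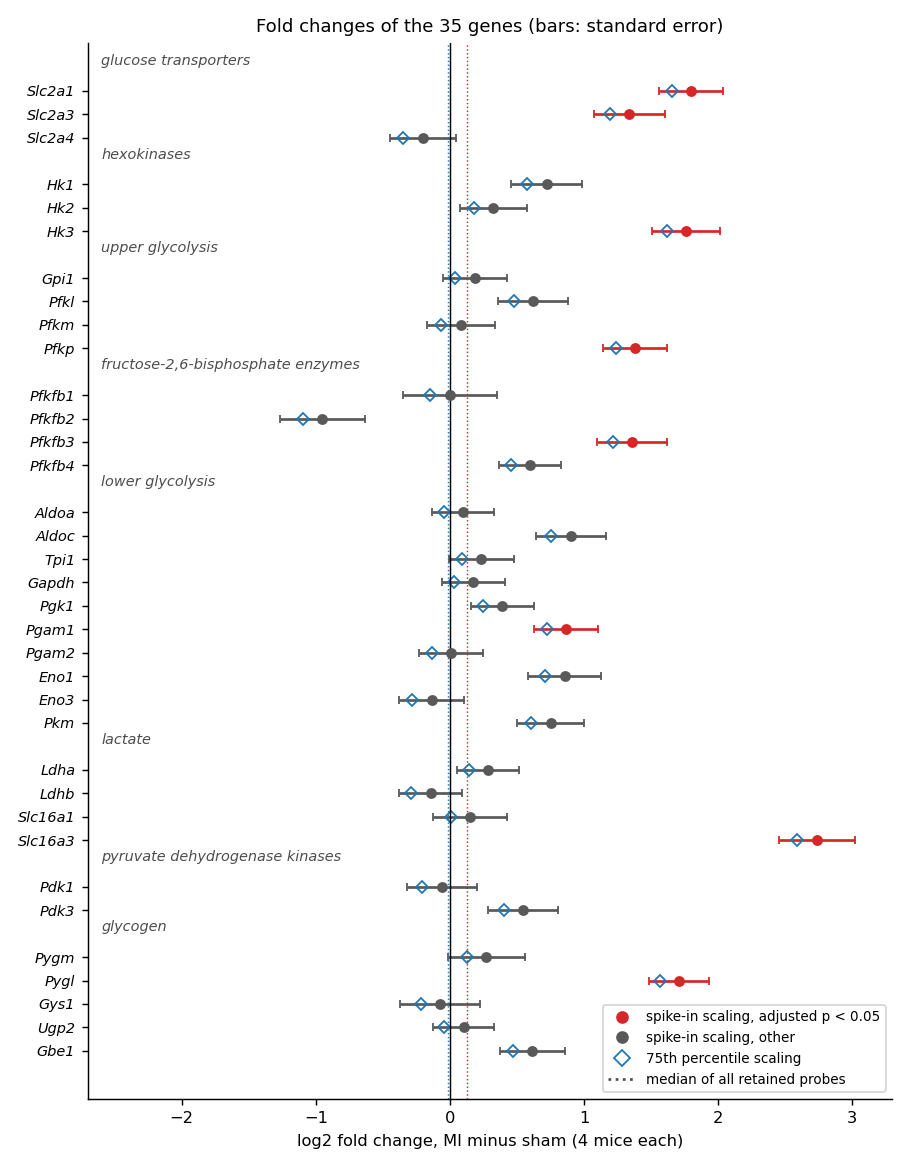
Log2 fold change (MI minus sham-operated, 4 mice each) of the 35 genes in groups by role. Filled points with bars are values and standard errors after spike-in scaling, red where called, and open diamonds are values after scaling to the 75th percentile. Dotted lines mark the median of all retained probes under each scaling. The 8 called genes lie between 0.86 and 2.73, and Pfkfb2 is lowest at -0.95.

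In these bulk samples, more cells of a type cannot be told apart from more RNA per cell. Of 9 retained neutrophil markers 7 were called higher in MI mice, among them S100a8 and S100a9, whose proteins fill the neutrophil cytosol. One of the 7, Ngp, was well above background on 0 of 4 sham arrays and 4 of 4 MI arrays and was retained only through the MI mice, and without it 6 of 8 were called. The markers not called were Csf3r, with a log2 fold change of 0.11, and Camp, with 0.72. The summed signal of the neutrophil list was 61232 to 77647 in sham-operated mice and 206608 to 316266 in MI mice, with no overlap (exact permutation test, p = 0.0286). Ngp is included in this sum, in which bright probes weigh most, and the brightest were S100a9, Csf3r and S100a8. No probe was assigned through RefSeq to the neutrophil marker Ly6g or to the monocyte and macrophage markers Cd68 and Ly6c2. These markers therefore have no value here. The study itself reported Cd68 and the leukocyte marker CD45 as higher in MI mice on these arrays. Of 8 retained markers of monocytes and macrophages 2 were called higher, Cd14 and Ccr2, and the summed signals overlapped (14549 to 20821 and 17515 to 26754). None of 12 cardiomyocyte markers, 8 fibroblast markers and 8 endothelial markers was called, and the cardiomyocyte sums overlapped (2916245 to 4088141 and 2694111 to 4082568). With the 75th percentile, 1 cardiomyocyte marker was called lower, the calcium pump regulator Pln at -0.68, and 1 endothelial marker higher, the adhesion molecule Pecam1 at 0.54. The summed atrial markers ranged from 37494 to 433367 in sham-operated mice and from 278705 to 488701 in MI mice, although the labels name ventricles (the methods speak of the excised heart). The part of these cell types in the results on the 35 genes was not tested.

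Of the glucose transporters, the 2 that work without insulin were higher in MI mice and the insulin-responsive one was not called. Slc2a1 (GLUT1), the basal carrier of most cells, had log2 signals of 10.44, 10.12, 10.59 and 10.05 in sham-operated mice and of 11.73, 12.07, 12.40 and 12.20 in MI mice. No MI mouse overlapped the sham range. The log2 fold change was 1.80 (SE 0.24, n = 4 per group, limma adjusted p = 0.000112), which is 3.48-fold. Slc2a3 (GLUT3), a carrier of high affinity, had log2 signals of 7.60, 6.76, 7.19 and 7.19 in sham-operated mice and of 8.28, 8.57, 9.07 and 8.16 in MI mice. Its groups did not overlap either, with MI replicate 3 the highest, and the log2 fold change was 1.34 (SE 0.26, n = 4 per group, limma adjusted p = 0.00441). It was 0.97 with normexp background correction and 0.72 with an additive constant of 200, and called in both.

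Slc2a4 (GLUT4), which insulin and contraction bring to the membrane of muscle cells, had log2 signals of 15.57, 14.99, 15.44 and 15.16 in sham-operated mice and of 15.37, 14.68, 15.37 and 14.92 in MI mice. The groups overlapped, and the log2 fold change was -0.20 (SE 0.25, n = 4 per group, limma adjusted p = 0.753). After scaling to the 75th percentile the value was -0.35, with the 4 MI mice below the 4 sham-operated mice but no call.

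Hexokinases trap glucose in the cell as glucose-6-phosphate. Hk3, the form of myeloid cells, had log2 signals of 6.96, 6.06, 6.03 and 6.21 in sham-operated mice and of 8.05, 7.84, 8.34 and 8.08 in MI mice, so the groups were clearly apart. The log2 fold change was 1.76 (SE 0.26, n = 4 per group, limma adjusted p = 0.000261), or 3.39-fold. For this dim probe it was 1.04 with normexp background correction and 0.74 with an additive constant of 200, and called in both. Hk1, the form bound to mitochondria in most tissues, had log2 signals of 14.30, 13.48, 14.37 and 13.62 in sham-operated mice and of 14.84, 14.27, 14.89 and 14.64 in MI mice. One MI mouse lay below 2 sham-operated mice, and the log2 fold change was 0.72 (SE 0.26, n = 4 per group, limma adjusted p = 0.142). It was called at 0.58 after scaling to the 75th percentile. A second, dimmer probe of Hk1 was called under both scalings, with a log2 fold change of 1.14 after spike-in scaling.

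Hk2, the insulin-regulated hexokinase of adult muscle, had log2 signals of 12.54, 12.32, 12.95 and 12.23 in sham-operated mice and of 12.92, 12.36, 12.98 and 13.07 in MI mice. The groups overlapped over most of their range, and the log2 fold change was 0.32 (SE 0.25, n = 4 per group, limma adjusted p = 0.574).

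Phosphofructokinase commits sugar to glycolysis, and its 3 genes differed in their values. Pfkp, the platelet form, had log2 signals of 10.55, 9.94, 10.59 and 10.31 in sham-operated mice and of 11.56, 11.58, 12.03 and 11.74 in MI mice. The groups lay about 1 log2 unit apart at their nearest, and the log2 fold change was 1.38 (SE 0.24, n = 4 per group, limma adjusted p = 0.00128), or 2.61-fold. The second probe of Pfkp, which was dimmer, gave 1.02. Pfkl, the liver form, had log2 signals of 11.02, 10.21, 10.56 and 10.40 in sham-operated mice and of 11.29, 10.58, 11.46 and 11.34 in MI mice. Only MI replicate 2 lay within the sham range, and the log2 fold change was 0.62 (SE 0.26, n = 4 per group, limma adjusted p = 0.217).

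Pfkl was called at 0.48 after scaling to the 75th percentile. Pfkm, the muscle form, had log2 signals of 15.91, 15.22, 15.86 and 15.54 in sham-operated mice and of 15.98, 15.30, 16.04 and 15.55 in MI mice. The groups were interleaved, with a log2 fold change of 0.08 (SE 0.25, n = 4 per group, limma adjusted p = 0.923). Gpi1, which turns glucose-6-phosphate into the substrate of phosphofructokinase, had log2 signals of 15.76 to 16.43 in sham-operated mice and of 15.99 to 16.54 in MI mice, and its 3 probes all gave a log2 fold change of 0.18.

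The bifunctional Pfkfb enzymes make and remove fructose-2,6-bisphosphate, the strongest activator of phosphofructokinase. Pfkfb3, the form with the highest kinase activity, had log2 signals of 9.07, 9.08, 9.58 and 8.92 in sham-operated mice and of 10.37, 10.52, 11.10 and 10.08 in MI mice. All MI mice were above all sham-operated mice, and the log2 fold change was 1.36 (SE 0.26, n = 4 per group, limma adjusted p = 0.00369), or 2.56-fold. Pfkfb2, the heart form, had log2 signals of 9.50, 9.71, 10.42 and 9.67 in sham-operated mice and of 9.30, 7.93, 8.80 and 9.46 in MI mice. Here all MI mice were below all sham-operated mice, and MI replicate 2 was the lowest.

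The log2 fold change of Pfkfb2 was -0.95 (SE 0.32, n = 4 per group, limma adjusted p = 0.102), or 0.517-fold, and was not called. It was called at -1.10 after scaling to the 75th percentile. Pfkfb4, first known from testis and inducible by hypoxia, had log2 signals of 9.01, 8.32, 8.82 and 8.57 in sham-operated mice and of 9.26, 9.15, 9.39 and 9.31 in MI mice. The groups did not overlap, the log2 fold change was 0.60 (SE 0.23, n = 4 per group, limma adjusted p = 0.168), and it was called at 0.45 after scaling to the 75th percentile. Pfkfb1, the form of liver and skeletal muscle, had a log2 fold change near 0 (-0.00 (SE 0.35, n = 4 per group, limma adjusted p = 0.999)) and a range of 9.67 to 11.11 in sham-operated mice and of 9.76 to 11.10 in MI mice.

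In the lower part of glycolysis, from aldolase to pyruvate kinase, 1 of 10 genes was called. Pgam1, the phosphoglycerate mutase of most tissues, had log2 signals of 13.37, 12.87, 13.37 and 13.32 in sham-operated mice and of 14.28, 13.69, 14.29 and 14.12 in MI mice. Each MI mouse was above the highest sham-operated mouse. This made a log2 fold change of 0.86 (SE 0.24, n = 4 per group, limma adjusted p = 0.0406), or 1.82-fold. Of the 8 fits that left out 1 mouse only that without MI replicate 2 called it, at 1.00, with 0.74 the lowest value among the 8 fits (without sham replicate 2), and it was not called without the filter on detection. Pgam2, the muscle form, had log2 signals of 16.25, 16.11, 16.54 and 16.38 in sham-operated mice and of 16.64, 15.87, 16.54 and 16.25 in MI mice, groups that coincided at a log2 fold change of 0.01 (SE 0.24, n = 4 per group, limma adjusted p = 0.992).

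Aldoc, the aldolase best known from brain, had log2 signals of 8.16, 7.56, 7.95 and 7.71 in sham-operated mice and of 8.93, 8.30, 9.28 and 8.47 in MI mice. The groups did not overlap, and at 0.90 (SE 0.26, n = 4 per group, limma adjusted p = 0.0535) the log2 fold change lay just outside the threshold. Aldoa, the muscle form, had log2 signals of 18.27, 17.89, 18.43 and 18.24 in sham-operated mice and of 18.50, 18.00, 18.47 and 18.24 in MI mice, with a log2 fold change of 0.10 (SE 0.23, n = 4 per group, limma adjusted p = 0.89). Its groups overlapped. Aldoc was called at 0.76 after scaling to the 75th percentile, and Aldoa was not (-0.05).

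Enolase makes phosphoenolpyruvate. Eno1, the enolase of most tissues, had log2 signals of 14.64, 14.02, 15.05 and 14.38 in sham-operated mice and of 15.55, 14.85, 15.75 and 15.37 in MI mice, with MI replicate 2 inside the sham range. At 0.85 (SE 0.27, n = 4 per group, limma adjusted p = 0.0835), the log2 fold change was not called. Eno3, the muscle enolase, had log2 signals of 17.09, 16.86, 17.42 and 17.18 in sham-operated mice and of 17.25, 16.62, 17.28 and 16.86 in MI mice. Its groups overlapped at a log2 fold change of -0.14 (SE 0.24, n = 4 per group, limma adjusted p = 0.844). Pkm, the pyruvate kinase of muscle and of most other tissues, had log2 signals of 15.18, 14.36, 14.91 and 14.82 in sham-operated mice and of 15.75, 15.22, 15.85 and 15.44 in MI mice. The groups of Pkm did not overlap, and the log2 fold change was 0.75 (SE 0.25, n = 4 per group, limma adjusted p = 0.099).

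After scaling to the 75th percentile Eno1 and Pkm were called, at 0.71 and 0.61, and stayed called in all 8 fits of that scaling that left out 1 mouse, as did Aldoc and Pgam1. Of the other genes called only under that scaling, Hk1 was called in 5 of those 8 fits, Gbe1 and Pfkfb2 in 4, Pfkfb4 in 2 and Pfkl in 1. Gapdh, the dehydrogenase that the study used as reference for its PCR, had log2 signals of 18.26, 18.13, 18.65 and 18.35 in sham-operated mice and of 18.70, 18.18, 18.76 and 18.46 in MI mice. The groups overlapped, and the log2 fold change was 0.17 (SE 0.23, n = 4 per group, limma adjusted p = 0.779). This probe was called under neither scaling, while 3 of 7 Gapdh probes were called after scaling to the 75th percentile, at 0.41 to 0.51. Tpi1 and Pgk1, which act on either side of Gapdh, had log2 fold changes of 0.23 and 0.39 and were called under neither scaling.

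Lactate handling held the gene with the largest change of the set. Slc16a3 (MCT4), which exports lactate from glycolytic cells, had log2 signals of 9.88, 9.05, 10.33 and 9.55 in sham-operated mice and of 12.13, 12.20, 12.86 and 12.57 in MI mice. The lowest MI mouse was far above the highest sham-operated mouse. The log2 fold change was 2.73 (SE 0.28, n = 4 per group, limma adjusted p = 9.47e-06), or 6.66-fold, and the second probe of the gene gave 2.75. Slc16a1 (MCT1), which takes up lactate in heart muscle, had log2 signals of 6.73, 5.96, 7.11 and 6.30 in sham-operated mice and of 6.85, 6.40, 7.03 and 6.42 in MI mice, low on this array. Its groups overlapped, with a log2 fold change of 0.15 (SE 0.27, n = 4 per group, limma adjusted p = 0.851).

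Ldha, the lactate dehydrogenase subunit that predominates in anaerobic tissue, had log2 signals of 17.05, 16.65, 17.06 and 16.89 in sham-operated mice and of 17.32, 16.89, 17.43 and 17.14 in MI mice. Only MI replicate 2 lay within the sham range, and the log2 fold change was 0.29 (SE 0.23, n = 4 per group, limma adjusted p = 0.589). Ldhb, the subunit of heart muscle, had log2 signals of 17.48, 17.13, 17.60 and 17.47 in sham-operated mice and of 17.54, 16.91, 17.50 and 17.15 in MI mice, with a log2 fold change of -0.14 (SE 0.24, n = 4 per group, limma adjusted p = 0.828). These probes of Ldha and Ldhb were called under neither scaling, but the other 2 Ldha probes, which were dimmer, were called after scaling to the 75th percentile, at 0.42 and 0.57. Pdk1 and Pdk3, kinases that switch off pyruvate dehydrogenase, had log2 fold changes of -0.06 and 0.54 and were not called either.

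In glycogen turnover, Pygl and Pygm break glycogen down to glucose-1-phosphate. Pygl, the liver form, had log2 signals of 9.74, 9.30, 9.67 and 9.48 in sham-operated mice and of 11.14, 11.26, 11.45 and 11.17 in MI mice. The groups were far apart and narrow, and the log2 fold change was 1.71 (SE 0.22, n = 4 per group, limma adjusted p = 9.25e-05), or 3.27-fold. Pygm, the muscle form, had log2 signals of 15.37, 14.25, 15.00 and 14.80 in sham-operated mice and of 15.49, 14.54, 15.44 and 15.03 in MI mice. Its groups overlapped at a log2 fold change of 0.27 (SE 0.29, n = 4 per group, limma adjusted p = 0.703).

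Gbe1, the branching enzyme, had log2 signals of 11.98, 11.33, 12.12 and 11.57 in sham-operated mice and of 12.42, 12.15, 12.57 and 12.32 in MI mice. The groups were just apart, the log2 fold change was 0.61 (SE 0.24, n = 4 per group, limma adjusted p = 0.179), and Gbe1 was called at 0.47 after scaling to the 75th percentile. Gys1, the glycogen synthase of muscle, and Ugp2, which makes its substrate UDP-glucose, had log2 fold changes of -0.07 and 0.10 and overlapping groups. In all, 19 of the 35 genes were called under neither scaling. Of these, 13 had a positive log2 fold change after spike-in scaling, near the share of 65.1% among all retained probes.

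**Figure D2:**
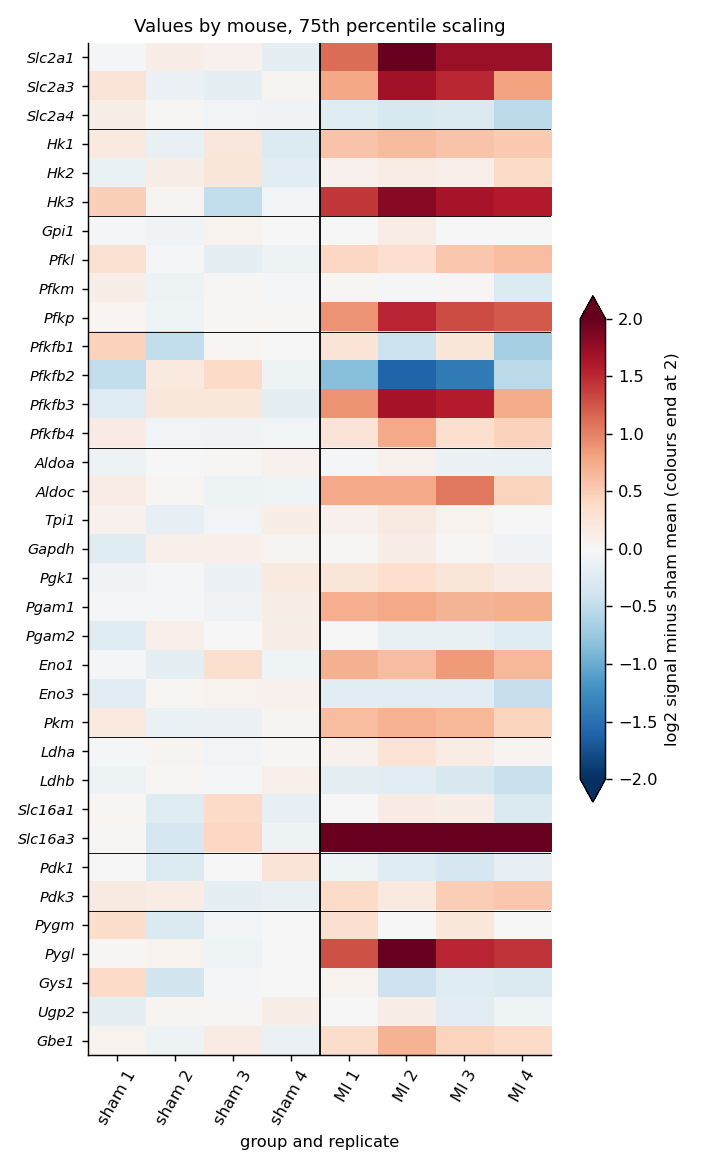
Log2 signal of each of the 35 genes (rows, lines divide the roles) in each mouse (columns) minus the mean of the 4 sham-operated mice, after scaling to the 75th percentile. Colours end at 2 log2 units in each direction. Slc16a3, Slc2a1, Pygl, Hk3, Pfkp, Pfkfb3 and Slc2a3 are above the sham mean in all 4 MI mice, Pfkfb2 is below it in all 4, and rows such as Aldoa, Gpi1 and Gapdh stay near 0.

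Whether the isoforms of 1 step moved by different amounts was asked within each array, where the scaling between arrays cancels. For 11 pairs the log2 signal of the form that predominates in adult heart or striated muscle was subtracted from that of the other form. For lactate these were the heart forms Slc16a1 and Ldhb, since Slc16a3 and Ldha are the forms of skeletal muscle. Such a difference between 2 probes has no meaning as a level, but its change between groups is a ratio of fold changes. In 10 of 11 pairs all 4 MI mice lay above all 4 sham-operated mice (exact permutation test, two-sided p = 0.0286, the smallest that 4 against 4 mice allow, 0.0315 after Benjamini-Hochberg adjustment over 11 pairs). Of all 114783976 pairs of the 15152 genes, each by its brightest probe, the difference dimmer minus brighter probe lay above the sham range in all 4 MI mice in 16.3% and below it in 12.7%. The pairs were chosen with results of these data known, and they are not independent, since Hk2 and Pfkm each enter 2 of them.

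The largest shift was in lactate transport. The difference Slc16a3 minus Slc16a1 was 3.16, 3.09, 3.22 and 3.25 in sham-operated mice and 5.28, 5.80, 5.82 and 6.15 in MI mice, a change of 2.59 (SE 0.18). For the glucose transporters, Slc2a1 minus Slc2a4 was -5.13, -4.87, -4.84 and -5.10 in sham-operated mice and -3.63, -2.61, -2.97 and -2.72 in MI mice, a change of 2.00 (SE 0.24). The sham-operated mice lay close together in both pairs, and the MI mice were spread more widely.

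Smaller changes were found for Hk3 over Hk2, at 1.44 (SE 0.30), for Pygl over Pygm, at 1.44 (SE 0.26), and for Pfkp over Pfkm, at 1.30 (SE 0.16). The change of Hk3 over Hk2 was 0.43 with overlap when an additive constant of 200 was used (exact permutation p = 0.0571). Changes were under 1 log2 unit for Eno1 over Eno3, at 0.99 (SE 0.14), Pgam1 over Pgam2, at 0.85 (SE 0.09), and Aldoc over Aldoa, at 0.80 (SE 0.16). They were smallest for Pfkl over Pfkm, at 0.54 (SE 0.15), and Ldha over Ldhb, at 0.43 (SE 0.06). Thus the isoforms of enolase, phosphoglycerate mutase and lactate dehydrogenase were separated within arrays although, apart from Pgam1, none of these genes was called on its own after spike-in scaling.

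For Ldha minus Ldhb the values were -0.42, -0.49, -0.54 and -0.58 in sham-operated mice and -0.23, -0.01, -0.07 and -0.01 in MI mice. The spread within either group was small beside the change. For Hk1 minus Hk2 they were 1.76, 1.16, 1.42 and 1.39 in sham-operated mice and 1.92, 1.91, 1.90 and 1.58 in MI mice, a change of 0.40 (SE 0.15) with overlap (exact permutation p = 0.0571, also 0.0571 after adjustment). The slide has 2 rows of arrays, which each hold 2 mice of each group. For the pairs whose groups did not overlap, a positive change within both rows follows from that separation and adds nothing to it. For Hk1 minus Hk2, where it does not follow, the change was 0.46 in row 1 and 0.34 in row 2. For Pfkl minus Pfkm the rows differed most in proportion, at 0.25 in row 1 and 0.83 in row 2.

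**Figure D3:**
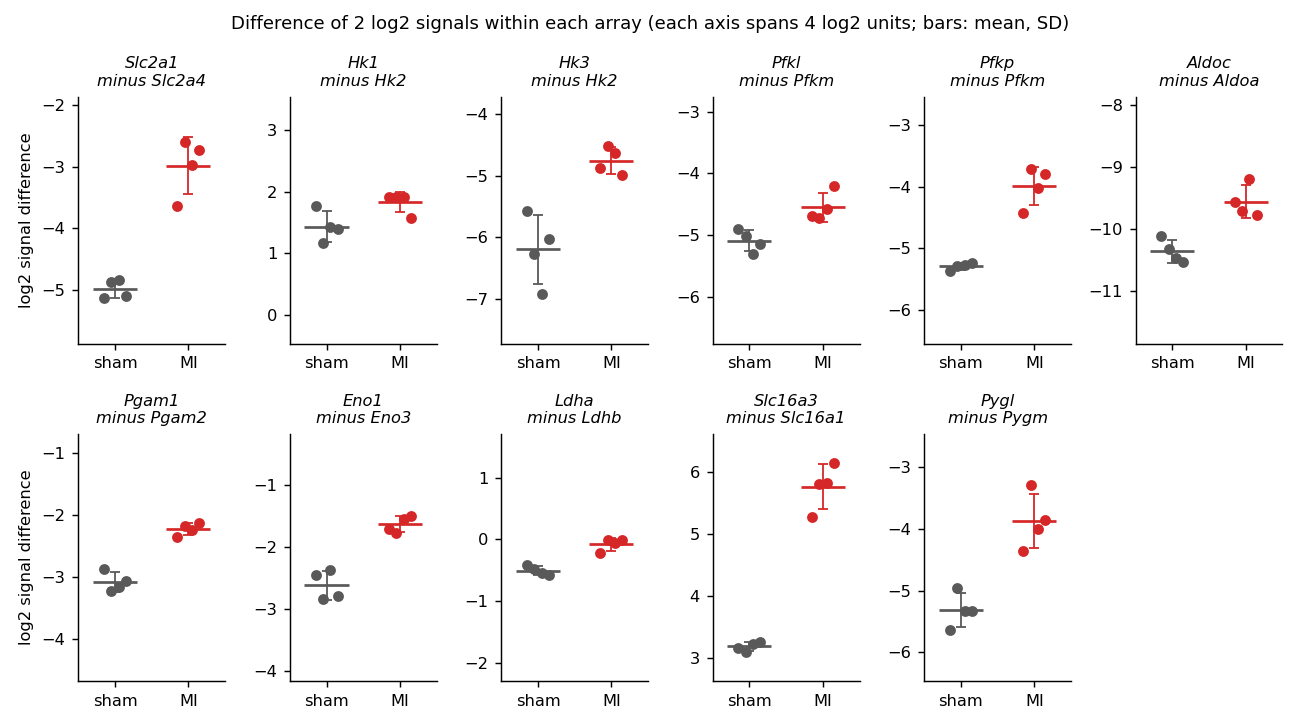
Log2 signal of one isoform minus that of the heart or striated muscle form of the same step within each array, in 4 sham-operated and 4 MI mice, for 11 pairs. Points are mice, bars the mean and SD, and every axis spans the same number of log2 units. The groups are apart in 10 pairs, by 0.43 to 2.59 on average, and overlap for Hk1 minus Hk2.

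After spike-in scaling calls were fewer among bright probes, in the set and on the whole array. Among 15 of the 35 genes with a mean log2 signal of 14 or more, 0 were called and the median log2 fold change was 0.18. Among the 8 genes between 11 and 14 it was 0.74, with 4 called, among the 8 between 8 and 11 it was 0.61, with 2 called, and among the 4 below 8 it was 0.94, with 2 called. Of all retained probes, 1.87% of those at 14 or more were called higher, 3.87% between 11 and 14, 5.3% between 8 and 11 and 5.63% below 8. After scaling to the 75th percentile the shares of all retained probes were 7.86%, 9.5%, 10.5% and 8.24% in the same order of ranges, and 3, 5, 5 and 2 genes of the set were called higher. With an additive constant of 200 the log2 fold changes of dim probes were smaller, for instance 0.56 for Aldoc and 0.28 for Pdk3. In 9 of 11 isoform pairs the form that was subtracted had the brighter probe, and the part of brightness in the changes within arrays was not tested. Signals of different probes cannot be read as relative amounts of RNA.

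Probes of 1 gene differed too. Of 10 genes with several retained probes, the brightest probe had the smallest log2 fold change in 8, but in 3 of these 8 (Slc16a3, Ugp2 and Tpi1) the gap was under 0.05, well within the standard errors. The brightest of 7 Gapdh probes gave 0.17 and the others 0.32 to 0.65. The brightest of 3 Ldha probes gave 0.29, and the others 0.57 and 0.71. Pfkfb3 is counted among the 8, but its dimmer probe, at 2.48, was well above background on only 5 of 8 arrays. The values reported above for Gapdh and Ldha are thus the lowest that their probes gave. The ranges of signal were chosen after the values were seen.

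**Figure D4:**
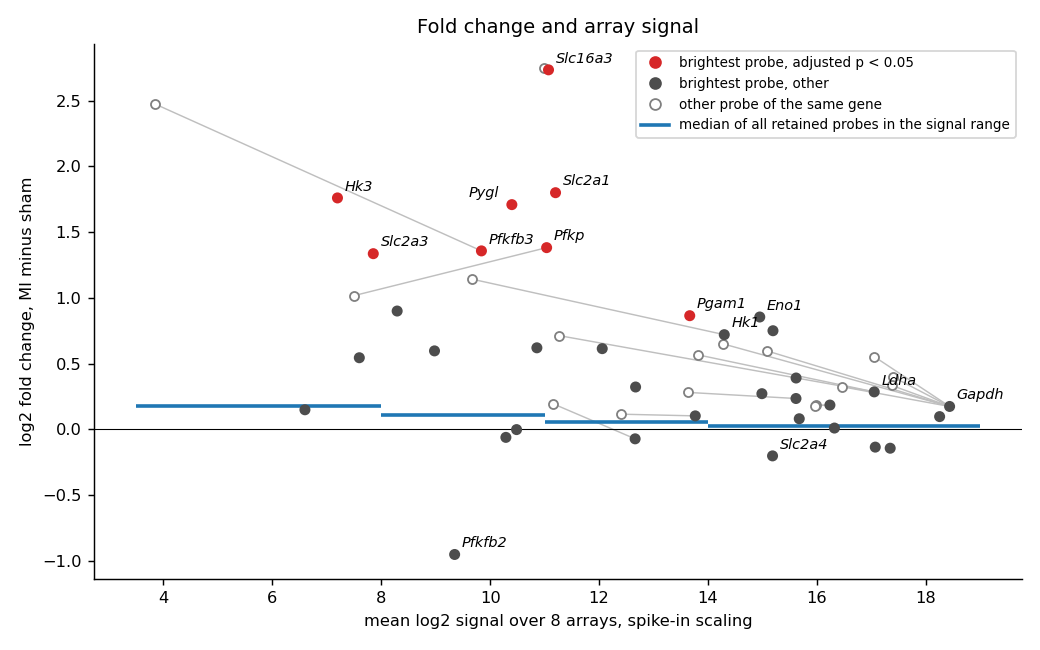
Log2 fold change (MI minus sham-operated) against mean log2 signal over the 8 arrays for the 35 genes (filled points, red where called), with further probes of the same gene as open points joined by lines. Blue lines are medians of all retained probes in 4 ranges of signal and fall from 0.18 to 0.02. Called genes lie below a log2 signal of 14, and the dimmer Gapdh and Ldha probes lie above the brightest ones.

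Beyond the set, 56 of 62 further genes of glucose metabolism were retained. Of these, 4 were called higher and 0 lower, and after scaling to the 75th percentile 6 were higher and 4 lower, shares of 56 to be read against 5.08% and 0.687% of retained probes for the first scaling and 8.99% and 8.48% for the second. Slc2a6 (GLUT6), a transporter of leukocytes and spleen, had log2 signals of 6.91, 6.69, 6.88 and 6.52 in sham-operated mice and of 7.86, 8.80, 8.68 and 8.52 in MI mice. The groups were apart, with a log2 fold change of 1.72 (SE 0.25, n = 4 per group, limma adjusted p = 0.000283). It was 0.86 with an additive constant of 200. Adpgk, an ADP-dependent glucokinase, had log2 signals of 8.30, 7.67, 8.42 and 8.26 and 9.05, 8.93, 9.20 and 9.07 in the same order of groups, again apart, with a log2 fold change of 0.90 (SE 0.24, n = 4 per group, limma adjusted p = 0.0295) that was 0.59 with the constant. These were 2 of 12 retained genes on the list of other transporters and glycolytic isoforms.

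Of 13 genes of the pentose phosphate and hexosamine pathways, 12 had a positive log2 fold change, beside 65.1% of all retained probes. Not all of the 12 stayed positive after scaling to the 75th percentile, where 48.3% of all retained probes were positive. The median log2 fold change of the 13 genes was 0.33, and 0.18 after that scaling, beside 0.13 and -0.01 for all retained probes. After spike-in scaling 1 of the 13 was called. It was G6pdx, which opens the pentose phosphate pathway and feeds the leukocyte oxidase with NADPH, at log2 signals of 10.32, 9.37, 9.76 and 9.69 in sham-operated mice and 10.88, 10.29, 11.02 and 10.71 in MI mice. Its groups overlapped, since MI replicate 2 lay just below sham replicate 1, and the log2 fold change was 0.94 (SE 0.26, n = 4 per group, limma adjusted p = 0.0411). G6pdx was not called with the constant, at 0.80. Of 19 other glycogen genes 1 was called, Pgm2, at log2 signals of 6.69, 6.38, 7.34 and 6.75 in sham-operated mice and 7.52, 7.70, 7.98 and 8.09 in MI mice. The groups were apart, with a log2 fold change of 1.03 (SE 0.25, n = 4 per group, limma adjusted p = 0.0212) that was 0.45 with the constant. Without 1 mouse the number called among these 56 genes was 1 without sham replicate 2 or 4 or MI replicate 3 or 4, and 2 without MI replicate 1, and Slc2a6 was called in each of the 8 fits.

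None of the 12 genes of the pyruvate dehydrogenase complex and pyruvate entry was called after spike-in scaling, with a median log2 fold change of -0.09, and none had an unadjusted p under 0.05. Pdk4, the kinase that fatty acids and fasting raise, varied from 14.80 to 16.67 in sham-operated mice and from 15.52 to 16.66 in MI mice, with a log2 fold change of 0.07 (SE 0.37, n = 4 per group, limma adjusted p = 0.952). Among the genes called lower after scaling to the 75th percentile were Phkg1, the catalytic subunit of muscle phosphorylase kinase, at -0.52, and Pdp1, the phosphatase that activates pyruvate dehydrogenase, at -0.47.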

How the data were processed

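RNA of 8 mice (4 with MI, 4 with sham surgery, grouped by the sample labels) was measured on 1-colour SurePrint G3 8x60K arrays. Feature Extraction 11.0.1.1 made the intensities, which were deposited background-subtracted and detrended within each array, per the file headers. The authors' log2 values, deposited for the same arrays, were normalized between arrays with spike-in probes in limma and vsn, after spots not above background had been removed. They were used as an alternative.

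For the values given here, log2 intensities were shifted per array by the median deviation of 7 spike-in probes, without an additive constant. Spots with outlier flags were left out, and spots of a probe were averaged. Controls and probes not detected well above background on 4 or more of 8 arrays were removed, which left 34038 of 55681 probes. Groups were compared in limma 3.58.1 (R 4.3.3) without covariates, with Benjamini-Hochberg adjustment over all retained probes. A gene was called at an adjusted p under 0.05. Single values were compared by two-sided exact permutation over 70 splits. Python 3.11.15 with numpy 2.4.6, scipy 1.17.1, pandas 2.3.3 and matplotlib 3.10.9 did the rest. The limma and significance analysis of microarrays (SAM) fits were tested on simulated data.

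Gene symbols (26576 of 27163 probes with a RefSeq accession) and promoter windows came from RefSeq, GRCm38.p6. Values in each mouse are given for genes of the set called under either scaling or past 2-fold, for Gapdh, and for both genes of a pair at the smallest exact p, and at most 3 called genes per direction are named from each other list. The values of 2 genes of these other lists are not reported here. Members, lists, pairs and tests were chosen with earlier results of these data known, and motif and signal ranges after the values were seen. The p-values measure the spread between mice operated separately, and the number of arrays limits the precision.

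Alternatives were the 75th percentile, quantile normalization, an additive constant of 200, normexp (offset 50, on the median intensities of spot and local background), the authors' log2 values, dim spots set to missing, no detection filter, detection on all 8 arrays, SAM (programmed here with all 70 permutations), blocks for the replicate number and for the array row, the mean of all probes of a gene, and each mouse left out.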

Additional observations from a re-analysis of the deposited data

Results flagged for a closer look

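Of 92 groups of 4 mice examined (each gene of the set and each isoform pair in each group), 4 were flagged. In each of the 4, the distance of 1 mouse to its nearest neighbour took up 0.89 to 0.97 of the range of the group. The cut was set so that by chance about 1 in 20 groups would be flagged. In 3 of the 4 the mouse was sham replicate 2, so these 3 are values of 1 array and not independent. Its log2 signal of Pgk1 was 15.08, beside 15.52 to 15.57 in the other sham-operated mice. Its log2 signal of Pgam1 was 12.87, beside 13.32 to 13.37, and that of Pdk1 was 9.73, beside 10.49 to 10.53. After scaling to the 75th percentile the values of this mouse were 15.48, 13.27 and 10.12, beside 15.39 to 15.70 for Pgk1, 13.24 to 13.45 for Pgam1 and 10.41 to 10.65 for Pdk1. Without sham replicate 2, Pgam1 was no longer called, but this was so in every fit that left out 1 mouse except that without MI replicate 2. The fourth was the difference Hk1 minus Hk2 in MI replicate 4, at 1.58 beside 1.90 to 1.92 in the other MI mice.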

How the results depend on the processing

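The counts moved with several settings, as did the share of all probes called higher (5.08% as reported, 8.99% with the 75th percentile, 9.19% with quantile normalization, 11.3% with a replicate block, 7.1% without MI replicate 2, 4.77% with normexp, 7.66% with SAM, and 7.75% of genes with the mean of all probes). Against 8 genes of the set called higher, 15 were called with the 75th percentile and 15 with quantile normalization, 14 with a replicate block, 12 with normexp, and 7 to 13 without 1 mouse. Against 0 called lower, 1 was with each of the 75th percentile, quantile normalization, normexp and detection on all 8 arrays, and 0 to 1 without 1 mouse (1 without MI replicate 4). The share of all probes called lower was 0.687% as reported, 8.48% with the 75th percentile and 9.21% with quantile normalization. It was 1.24% with normexp, 1.09% with detection on all 8 arrays, 2.02% with a replicate block and 1.03% without MI replicate 4. Of the other genes of the pathway, 4 were called higher, beside 7 with quantile normalization, 1 without a detection filter, 7 with a replicate block and 1 to 6 without 1 mouse, and 0 lower, beside 4 with the 75th percentile, 4 with quantile normalization, 1 with normexp and 1 with a replicate block. The smallest exact p was lost for Hk3 minus Hk2 with an additive constant of 200, at 0.43 (exact permutation p = 0.0571), and for Aldoc minus Aldoa with quantile normalization, at 0.61 (exact permutation p = 0.0571). No value changed sign among called values. SAM called 11 genes of the set higher, the authors' log2 values 9 and the mean of all probes 11. Across probes, same-numbered mice did not deviate together (correlations of deviations between -0.07 and 0.20 over the 4 numbers, and not every mouse correlated best with its own number). This check cannot see a level shared by a whole array. After spike-in scaling the 75th percentile was lowest in replicate 2 of both groups (-0.39 in sham-operated and -0.37 in MI mice, from the mean of the arrays). It was highest in replicate 3 of both groups (0.13 and 0.30). Whether the numbers pair the mice was therefore not settled. A paired test of 4 differences cannot go below p = 0.125 by exact permutation, so pairing by number could give no call for the isoform pairs. Dim probes carry the most background error, and 4 of the 35 genes had a mean log2 signal below 8.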
